A study of Mus musculus with 21 samples.

Results

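Ccl11, Ccl24, Ccl17 and Ccl22, the eotaxins and the chemokines that draw Th2 cells, were followed in mouse lung after a fungal extract reached the airways. The members were the probe sets whose platform annotation names one of these 4 genes. Each gene had 1 probe set, so 4 of 22626 probe sets, and 4 of 12393 genes tested, were described.

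Female BALB/c mice, 8 weeks old, were given 1 dose by aspiration through the trachea. The MACA groups received a crude antigen preparation of Metarhizium anisopliae, a fungus that infects insects, at 20 µg in 50 µl of Hank's balanced salt solution (HBSS). The BSA groups received bovine serum albumin at the same dose in the same vehicle, and the HBSS groups received 50 µl of vehicle alone. The whole left lung was taken 3 h or 12 h later, which gave 21 arrays in 6 groups. At 3 h there were 4 lungs after MACA and 3 each after BSA and HBSS, and at 12 h there were 3 after MACA and 4 each after BSA and HBSS. All groups, vehicle included, had been through the aspiration, and no untreated lung was among the samples. The labels call the arrays biological replicates and speak of agents of high and of low allergenicity.

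Chemokines are small secreted proteins that steer leukocytes along a gradient through receptors on the cell surface. Ccl11 (eotaxin-1) and Ccl24 (eotaxin-2) act through Ccr3, the main chemokine receptor of eosinophils. Ccl17 and Ccl22 act through Ccr4, which is found on Th2 cells and regulatory T cells. In allergic lung, Ccl11 is known mainly from epithelial cells and fibroblasts, Ccl24 from macrophages, and Ccl17 and Ccl22 from dendritic cells and macrophages, and signalling from Il4 and Il13 through Stat6 is a known inducer of all 4.

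The array medians of the deposited intensities ranged from 93.5 to 288, so the arrays were brought to one distribution. A level is given as a normalized intensity, and a difference as a log2 fold on the log2(intensity + 16) scale, with its standard error (SE) from limma and a Benjamini-Hochberg adjusted p over all genes. A gene was called at an adjusted p under 0.05. The noise level, taken from the size of the values below 0, was an intensity of 40.9, and 28.1% of all gene values lay under it. A spiked hybridization control split the arrays into a high set of 13 and a low set of 8. All HBSS arrays of 12 h fell in the low set, together with replicates 3 and 4 of MACA at 3 h and of BSA at 12 h. MACA and HBSS thus never shared a set at 12 h, and within that comparison agent and set cannot be told apart. All 8 lung identity markers, surfactant proteins among them, were above the noise level in every group. In whole lung, more cells of a type and more RNA per cell cannot be told apart.

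At 3 h, the transcripts of both Ccr4 ligands, Ccl17 and Ccl22, were higher after MACA than after HBSS, 3.70-fold each. At 12 h all 4 chemokines were higher, with folds of 4.97 for Ccl17, 6.85 for Ccl22 and 2.75 for Ccl11, and at least 3.33-fold for Ccl24. So 2 of 4 members were called higher at 3 h, against 4.84% of all genes, and 4 of 4 at 12 h, against 10.2% of all genes. Against BSA the called members were Ccl17 and Ccl22 at 3 h, and Ccl17, Ccl22 and Ccl24 at 12 h, where 3.5% and 4.07% of all genes were called higher. The arrays of those called members did not overlap with the BSA arrays either, a pattern found for 8.3% of all genes at 3 h and 7.76% at 12 h. The comparisons against HBSS and against BSA share the MACA arrays.

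**Figure D1:**
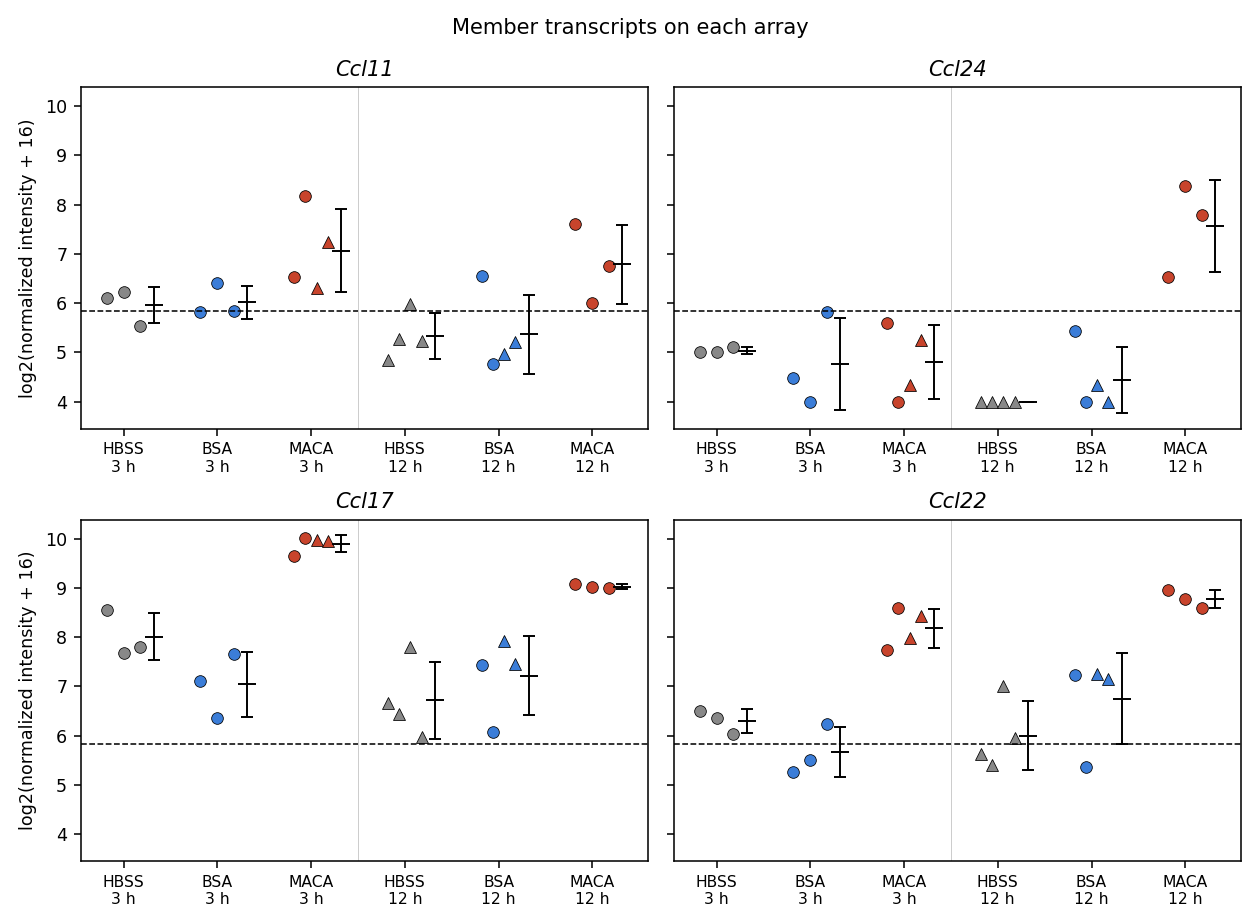
Normalized level, as log2(intensity + 16), of the 4 chemokines on each of the 21 arrays in the 6 groups. Circles are arrays of the high set and triangles those of the low set, black bars are the group mean ± SD, and the dashed line is the noise level of 5.83. Ccl17 and Ccl22 are above every BSA and HBSS array on all 7 MACA arrays, whereas Ccl24 rises above the noise level on the 3 MACA 12 h arrays.

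Ccl11, eotaxin-1, was called higher after MACA at 12 h and against HBSS alone. The probe set 1417789_at reads this gene, which lies on chromosome 11 at 82057832-82062955 (GRCm38.p6). At 3 h its intensity was 52.9, 59.0 and 30.3 after HBSS, 40.2, 68.9 and 41.3 after BSA, and 76.7, 273, 63.4 and 135 after MACA. All MACA arrays were above all HBSS arrays, but the lowest was below the highest BSA array. Groups that did not overlap in that direction were found for 10.1% of all genes. The fold against HBSS was 1.11 ± 0.48 (SE) on the log2 scale and was not called (limma, adjusted p = 0.170), and against BSA it was 1.04 ± 0.48 (limma, adjusted p = 0.215).

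At 12 h Ccl11 stood at 12.7, 22.3, 46.8 and 21.7 after HBSS, at 77.2, 11.1, 15.3 and 21.1 after BSA, and at 179, 47.9 and 92.0 after MACA. In both control groups 3 of 4 arrays were under the noise level, so the size of the fold rests in part on noise. The MACA and HBSS arrays did not overlap, as held for all 4 members at this time and for 15% of all genes, while BSA replicate 1 was above MACA replicate 2. The transcript rose by 1.46 ± 0.48 (SE) on the log2 scale against HBSS (limma, adjusted p = 0.0412). Against BSA the difference was 1.42 ± 0.48 and was not called (limma, adjusted p = 0.0739). The call against HBSS was near the threshold. With the control set as a term the log2 fold was 0.89 (limma, adjusted p = 0.386). Leaving out 1 array ended the call in 5 of 7 fits, those without MACA replicate 1 or 3 or HBSS replicate 1, 2 or 4. Over all 7 fits the log2 fold ran from 1.05 to 1.85. Without BSA replicate 1 the log2 fold against BSA was 1.81 and was called (limma, adjusted p = 0.0151).

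Ccl24, eotaxin-2, was seen above noise only on the MACA 12 h arrays. Its probe set is 1450488_at, and the gene lies on chromosome 5 at 135569935-135573123 (GRCm38.p6). In that group the normalized intensity was 76.7, 316 and 204. On the other 18 arrays the highest was 40.1, and 8 of the 18 deposited values were below 0. The lowest deposited value after MACA at 12 h was 60.4, and the highest anywhere else was 35, so the groups were apart before any scaling as well.

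At 3 h Ccl24 was 32.6, -0.59, 4.11 and 22.3 after MACA, 6.35, -9.90 and 40.1 after BSA, and 15.9, 15.99 and 18.5 after HBSS. All of these lie within the noise, so no fold is given for that time. At 12 h it was -20.8, -27.2, -5.90 and -2.11 after HBSS and 26.9, -26.7, 4.14 and -2.92 after BSA. No control array came near the lowest MACA 12 h array. The MACA 12 h level was at least 3.33-fold higher than the noise level in HBSS (limma, adjusted p = 0.000173), in BSA (limma, adjusted p = 0.00124) and in MACA at 3 h (limma, adjusted p = 0.00164). The last of these was the single call among the 4 members for 12 h against 3 h after MACA, where 5.59% of all genes were called higher.

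Ccl24 was also the 1 member whose difference between MACA and HBSS changed between the times, by 3.80 ± 0.69 (SE) on the log2 scale (limma, adjusted p = 0.00973), with 2.07% of all genes called higher. The change of the MACA to BSA difference was 3.09 ± 0.69 (limma, adjusted p = 0.0479), with 0.218% called higher. Both sizes depend on the floor under the dim arrays: with a pseudocount of 4 in place of 16 the first was 6.10, and with 64 it was 1.98. Neither change was called with the control set as a term (limma, adjusted p = 0.0752 and 0.309), and the second lost its call in 11 of 14 fits that left out 1 array, with values over all 14 from 2.57 to 3.61.

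Ccl17 (TARC) and Ccl22 (MDC) are neighbours on chromosome 8, with 57992 bases between them and Cx3cl1, a chemokine anchored to the cell membrane, in the gap. Ccl22 (probe set 1417925_at) lies at 94745684-94751388 and Ccl17 (1419413_at) at 94809380-94812038 (GRCm38.p6). Because both genes were higher after MACA than after either control at both times, the 250 bases before a RefSeq transcript start of each are shown, from the plus strand of GRCm38.p6. For Ccl17 that start lies inside the gene's span, at the end of chr8:94810203-94810452, and for Ccl22 the window is chr8:94745434-94745683. Capitals mark matches to motifs of the STAT family, through which Il4 and Il13 act.

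Ccl17: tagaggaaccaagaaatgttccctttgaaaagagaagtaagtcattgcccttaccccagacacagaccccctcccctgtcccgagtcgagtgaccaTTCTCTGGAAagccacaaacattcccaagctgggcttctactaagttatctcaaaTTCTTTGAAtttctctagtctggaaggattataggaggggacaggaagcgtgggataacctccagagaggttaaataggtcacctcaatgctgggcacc
Ccl22: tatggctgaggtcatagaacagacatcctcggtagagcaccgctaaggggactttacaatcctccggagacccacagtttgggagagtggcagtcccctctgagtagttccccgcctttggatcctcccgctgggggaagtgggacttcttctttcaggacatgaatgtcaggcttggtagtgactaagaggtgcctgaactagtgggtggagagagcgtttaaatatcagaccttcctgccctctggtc

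Both strands of the windows were searched for 5 motifs. The Ccl17 window holds 1 match to TTC and GAA with 4 bases between them, the spacing known for Stat6, 154 to 145 bases before the start, and 1 match to TTCNNNGAA, 99 to 91 bases before it. The matches do not overlap. These letters are found in 5.89% and 7.04% of 32536 promoter windows of that length. The Ccl22 window has no match to either, and neither window has one to the NF-kB consensus (7.28% of windows), to the AP-1 motif TGANTCA (6.73%) or to a GAAA repeated after 2 bases (2.98%). A match is a run of letters and not a measured binding site.

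Ccl17 was above the noise level on all 21 arrays. At 3 h its intensity was 361, 190 and 206 after HBSS, 123, 65.8 and 187 after BSA, and 792, 1022, 990 and 979 after MACA. The lowest MACA array was above the highest control array of either time, 361. Against HBSS the transcript rose by 1.89 ± 0.43 (SE) on the log2 scale, which is 3.70-fold (limma, adjusted p = 0.0128), and against BSA by 2.86 ± 0.43, which is 7.25-fold (limma, adjusted p = 0.00120). The call against HBSS was lost without HBSS replicate 2 or 3 (limma, adjusted p = 0.0546 and 0.0598). Within the high set the log2 fold against HBSS was 1.82 (limma, adjusted p = 0.0587).

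At 12 h Ccl17 was 85.4, 70.9, 207 and 46.5 after HBSS, 156, 51.0, 227 and 160 after BSA, and 524, 503 and 492 after MACA. The 3 MACA arrays lay close together and well above every control array. The rise was 2.31 ± 0.43 (SE) on the log2 scale against HBSS, or 4.97-fold (limma, adjusted p = 0.00151), and 1.81 ± 0.43 against BSA, or 3.50-fold (limma, adjusted p = 0.0144). With the control set as a term, its size taken from other groups, the log2 fold against HBSS was 2.85 (limma, adjusted p = 0.00471). The call against BSA was lost without MACA replicate 2 (limma, adjusted p = 0.0580), with no scaling between arrays (0.0915) and in a fit of the 2 groups alone (0.106).

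Ccl22 was above the noise level on 16 of 21 arrays. At 3 h it was 75.1, 65.5 and 49.6 after HBSS, 22.4, 29.2 and 59.4 after BSA, and 196, 369, 238 and 330 after MACA. All MACA arrays were above all control arrays of both times, the highest of which was 136. The rise was 1.89 ± 0.43 (SE) on the log2 scale against HBSS, or 3.70-fold (limma, adjusted p = 0.0134), and 2.52 ± 0.43 against BSA, or 5.73-fold (limma, adjusted p = 0.00305). Without HBSS replicate 3 the call against HBSS was lost (limma, adjusted p = 0.0637). Within the high set the log2 folds against HBSS and BSA were 1.86 and 2.49 (limma, adjusted p = 0.0754 and 0.0554).

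At 12 h Ccl22 was 33.1, 26.6, 112 and 46.3 after HBSS, 135, 25.4, 136 and 126 after BSA, and 481, 423 and 369 after MACA. The MACA arrays did not overlap with either control group, and in BSA 3 of 4 arrays were above every HBSS array. The rise was 2.78 ± 0.43 (SE) on the log2 scale against HBSS, or 6.85-fold (limma, adjusted p = 0.000435), and 2.02 ± 0.43 against BSA, or 4.06-fold (limma, adjusted p = 0.00808). With the control set as a term, its size taken from other groups, the log2 fold against HBSS was 3.25 (limma, adjusted p = 0.00266). In a fit of the 2 groups alone the call against BSA was lost (limma, adjusted p = 0.114), as was that of Ccl24 (0.0693), and no gene was called there (0 genes, with 2439 at an unadjusted p under 0.05).

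**Figure D2:**
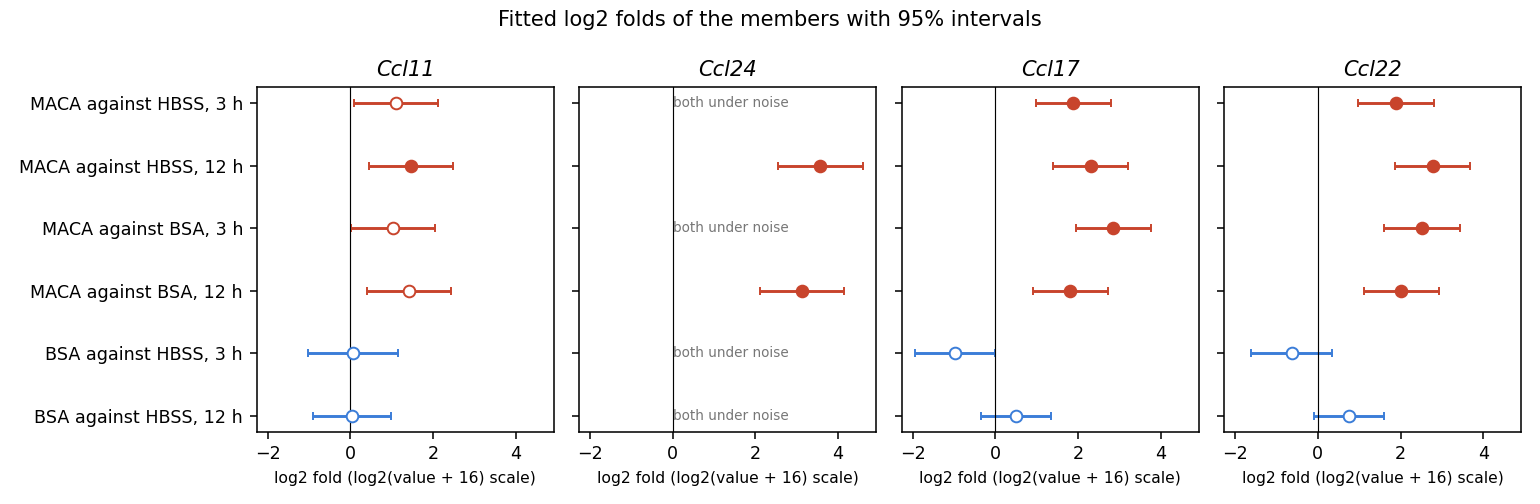
Fitted log2 folds with 95% intervals for the 4 chemokines in the 6 comparisons between agents at one time. Filled points were called at an adjusted p under 0.05, and no fold is drawn where both groups were under the noise level. The MACA comparisons lie to the right of 0 for Ccl17 and Ccl22 at both times, and the BSA to HBSS intervals are open points near 0 or below it at 3 h.

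The albumin control raised or lowered none of the 4 transcripts past the threshold, as 0 members were called for BSA against HBSS by limma at either time, beside 0.178% of all genes at 3 h and 1.35% at 12 h. At 3 h 1 member, Ccl17, had an unadjusted p under 0.05, and at 12 h 0 members did. Ccl17 at 3 h was lower on every BSA array than on every HBSS array, a pattern seen for 9.17% of all genes, with a log2 difference of -0.97 (95% interval -1.94 to -0.00013; limma, adjusted p = 0.470). At 12 h the differences were 0.50 for Ccl17 (-0.34 to 1.34), 0.75 for Ccl22 (-0.09 to 1.60) and 0.04 for Ccl11 (-0.90 to 0.98). These intervals hold rises of up to 1.60 on the log2 scale, so the calls do not show that BSA left the transcripts as they were.

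Between 3 h and 12 h after MACA, Ccl17 and Ccl22 differed in opposite directions without a call. The 3 Ccl17 values at 12 h were below all 4 at 3 h, with a log2 difference of -0.87 (limma, adjusted p = 0.226). The 3 Ccl22 values were above all 4 at 3 h, the lowest of them by almost nothing (both 369), with a difference of 0.59 (limma, adjusted p = 0.445). Groups that did not overlap were found for 9.98% of all genes in the first direction and for 11.3% in the second. Ccl11 differed by -0.28 between the times (limma, adjusted p = 0.792), with overlapping values. After BSA and after HBSS 0 members were called between the times by limma (1 and 2 at an unadjusted p under 0.05), beside 5.3% and 7.88% of all genes. After HBSS, Ccl17 differed by -1.30 on the log2 scale at 12 h against 3 h, which was not called (limma, adjusted p = 0.0737), and without HBSS 12 h replicate 3, the highest of its group, it was called (0.0250). All HBSS arrays were in the high set at 3 h and in the low set at 12 h, so for HBSS time and set cannot be told apart.

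The sizes of the MACA to HBSS responses were compared between members on the same arrays. An exact permutation test exchanged agent labels within each time (2-sided, 1225 arrangements, adjusted over 6 pairs). The log2 response of Ccl11 was smaller than that of Ccl22 by 1.05 over both times (exact p = 0.00245, adjusted p = 0.0147). This pair kept its call under all 4 scalings and pseudocounts tried, at adjusted p from 0.00980 to 0.0294. Ccl11 was also below Ccl17 by 0.82, which did not pass (exact p = 0.0376, adjusted p = 0.113). Ccl17 and Ccl22 differed by 0.0018 at 3 h and by -0.46 at 12 h (exact p = 0.253, adjusted p = 0.446). The 3 pairs with Ccl24 had adjusted p from 0.446 to 0.633 and rest on noise at 3 h. Because a pseudocount understates the fold of dim genes, a difference in fitted response between a dim and a bright transcript is partly one of scale.

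The gap between Ccl17 and Ccl22 was also taken within each array, from the normalized levels, and set side by side between the times. The log2 level of the Ccl17 probe set minus that of the Ccl22 probe set was 1.93, 1.43, 1.99 and 1.52 on the MACA 3 h arrays and 0.12, 0.24 and 0.40 on the MACA 12 h arrays. It was 2.05, 1.34 and 1.76 after HBSS at 3 h and 1.05, 1.03, 0.80 and 0.0024 at 12 h. After BSA it was 1.86, 0.85 and 1.43 at 3 h and 0.19, 0.69, 0.68 and 0.31 at 12 h. The gap was thus smaller on every 12 h array than on every 3 h array of the same agent, controls included. How often other pairs of genes show this was not counted. In the controls the gap rests in part on noise. Ccl22 was under the noise level on replicates 1 and 2 of BSA at 3 h and of HBSS at 12 h. It was also under it on replicate 2 of BSA at 12 h. After HBSS, time and control set cannot be told apart. The gap as a number sets 1 probe set against another and has no meaning as a ratio of transcripts, and it was not tested.

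Likeness over the 21 arrays was described by Pearson's r of the log2 levels among 9305 genes above noise in at least 1 group. Arrays share their agent and time, so r describes the pattern and no p is given. Ccl17 was most like Slc26a4, an anion exchanger (r = 0.94), the chemokines Cxcl10 (0.93) and Ccl2 (0.92), and Csf1, the macrophage growth factor (0.91). Ccl22 was most like Slc26a4 (0.94), Noxo1, an organiser of an NADPH oxidase (0.93), the acute phase protein Saa3 (0.93) and the transcription factor Irf5 (0.92). The 2 Ccr4 ligands had r = 0.86 with each other.

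The genes most like the eotaxins were others. Ccl11 was most like Thbs1, a matrix glycoprotein (0.87), Steap4, a metalloreductase (0.84), Trem1, a receptor of neutrophils and monocytes (0.84), and Hcar2, a metabolite receptor (0.84). Ccl24 was most like Tgfbi, an extracellular matrix protein (0.87), Ino80c, a subunit of a chromatin remodeller (0.85), Copg1, a coatomer subunit (0.85), and Psme1, a proteasome activator subunit (0.85). Those of Ccl24 had log2 folds of -0.09 to 0.05 against HBSS at 3 h and of 0.34 to 1.54 at 12 h, values that their choice by likeness to Ccl24 on these arrays had favoured. Between the eotaxins themselves r was 0.35. Ccl11 had a higher r with the Ccr4 ligands, 0.73 with Ccl17 and 0.70 with Ccl22. For Ccl24 these were 0.46 and 0.60. Of the 21 arrays, Ccl24 was above the noise level on 3 and Ccl11 on 13, so the r values of both rest in part on noise.

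Neighbouring genes were set beside the members. Next to Ccl11 in the CC chemokine cluster, Ccl2, a monocyte attractant, rose by 4.30 ± 0.50 (SE) at 3 h and by 3.79 ± 0.50 at 12 h on the log2 scale (limma, adjusted p = 8.2e-05 and 0.000141). Ccl12, also a monocyte attractant, rose by 2.35 ± 0.29 and 2.72 ± 0.29 (limma, adjusted p = 0.000129 and 3.39e-05), against HBSS means under the noise level. Cx3cl1, between Ccl22 and Ccl17, rose by 0.50 ± 0.13 at 3 h (limma, adjusted p = 0.0248) and differed by -0.14 ± 0.13 at 12 h (0.488). On the outer sides of that pair, Ciapin1, Coq9, Pllp and Arl2bp were not called at either time, and neither, against HBSS, were Pom121, Hip1, Rhbdd2 and Styxl1 around Ccl24.

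Receptors, decoys and a processing enzyme of these chemokines made a list of 6. Of these, Ccr3, Ccr4 and Ccr8, the last named after its values were seen, were under the noise level on every array. Ackr1, a decoy receptor of red cells and venules that binds many chemokines, rose by 1.04 ± 0.20 (SE) on the log2 scale at 3 h and by 1.02 ± 0.20 at 12 h against HBSS (limma, adjusted p = 0.00511 and 0.00254), with HBSS means just under the noise level at both times. Ackr2, a scavenging decoy receptor named after its values were seen, was above noise throughout and differed by 0.03 and -0.17 without a call. Dpp4, a peptidase that trims chemokines, fell by 0.57 ± 0.15 on the log2 scale at 12 h (0.0136). Ccr4 also passed the test at 12 h, as a second member called lower, but with both groups under noise no fold is given. The list counted 1 higher and 0 lower at 3 h, and 1 higher and 2 lower at 12 h, with a median log2 fold of -0.04 and -0.19, beside -0.02 and -0.0010 for all genes. For this list and those below, 4.84% of all genes were called higher at 3 h and 10.2% at 12 h. Called lower were 406 of 12393 genes at 3 h and 1251 at 12 h.

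Other ligands of the same receptors moved as well, 1 of 5 measured at 3 h and 3 of 5 at 12 h, all higher, with a median of 0.06 and 1.05. Ccl7, which binds Ccr3 among others and is the nearest neighbour of Ccl11, was at least 6.06-fold higher at 3 h (limma, adjusted p = 0.000601) and rose by 3.14 ± 0.42 (SE) at 12 h on the log2 scale (0.000163), a size that rests in part on noise, with 3 of 4 HBSS arrays under that level. Ccl5, a T cell and eosinophil attractant, rose by 1.16 ± 0.32 at 12 h (0.0159), and Ccl8 by 1.05 ± 0.20 (0.00199).

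Il4 and Il13, the type 2 cytokines known to induce the members, gave no level above noise. Il4 and Il13 were under the noise level in MACA and HBSS at both times, and Stat6, the factor they act through, differed by 0.18 ± 0.09 (SE) on the log2 scale at 3 h and at 12 h (limma, adjusted p = 0.212 and 0.158). Within the list of type 2 cytokine and Stat6 pathway genes, 3 of 14 were higher at 3 h and 5 of 14 at 12 h, with 0 lower and medians of 0.27 and 0.41. Il4ra, the receptor chain shared by Il4 and Il13, rose by 0.91 ± 0.14 at 12 h (0.000478), Jak3 by 1.10 ± 0.18 (0.000555), and Socs1, a feedback inhibitor of many cytokines, was at least 2.02-fold higher (0.004). Il13ra2, a decoy for Il13, passed the test at 12 h with both groups under noise. Cish, another feedback inhibitor, rose 2.83-fold at 3 h (6.79e-05).

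A list of inducers outside the type 2 axis also held receptor chains of Csf2 and the transcription factors Relb and Irf4. Of its genes 6 of 7 were called higher at 3 h and 7 of 7 at 12 h, beside 4.84% and 10.2% of all genes. The median log2 fold was 1.91 and 1.18. The list was written with earlier results of these data known, and whether its genes induced the members was not tested. Csf2 (GM-CSF), a growth factor of granulocytes, macrophages and dendritic cells, rose by 2.66 ± 0.29 (SE) at 3 h and by 1.45 ± 0.29 at 12 h (limma, adjusted p = 5.86e-05 and 0.00281), the latter against 3 of 4 HBSS arrays under noise. Il1b rose by 3.26 ± 0.60 and 2.69 ± 0.60 (0.00312 and 0.00482), and Relb, an NF-kB subunit, by 1.18 ± 0.17 at 12 h (0.000248). Tnf was at least 2.69-fold higher at 12 h (0.00039). Of 6 epithelial alarmin genes, 0 were called at 3 h by limma, with 1 at an unadjusted p under 0.05, and 2 at 12 h, Il33 at 0.97 ± 0.22 (0.00566) and Crlf2, a chain of the Tslp receptor, at 0.40 ± 0.10 (0.0123). Mean log2 levels of Crlf2 at 12 h were 10.08 after MACA, 9.99 after BSA and 9.68 after HBSS. Tslp itself, named after its values were seen, was not called. Its mean log2 levels were 7.82 after MACA and 7.44 after HBSS at 3 h, and 6.29 and 6.73 at 12 h.

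Genes of alternatively activated macrophages, a state that Il4 and Il13 are known to induce, were higher for 2 of 12 at 3 h and for 5 of 12 at 12 h, with a median of 0.22 and 0.48. Arg1 was under the noise level on all HBSS and BSA arrays and on the MACA 3 h arrays, and at 12 h it was at least 2.88-fold higher after MACA than after HBSS (limma, adjusted p = 0.000415). Msr1, a scavenger receptor, rose by 2.22 ± 0.33 (SE) on the log2 scale (0.000342) and Retnla by 1.87 ± 0.61 (0.0377) at 12 h. Chil4 also passed (0.00927), with HBSS under noise and no fold. At 3 h Egr2, a transcription factor, rose by 1.76 ± 0.23 (0.000202). By limma 0 genes of the list were called lower, but others, named after their values were seen, did not all rise. Mean log2 levels of Mrc1 were 9.45 after MACA and 9.68 after HBSS at 3 h, and 9.28 and 9.42 at 12 h. Those of Chil3 were 10.23 and 10.53 at 3 h, and 10.65 and 10.51 at 12 h. Those of F13a1 were 7.95 and 7.60 at 3 h, and 8.00 and 8.10 at 12 h.

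**Figure D3:**
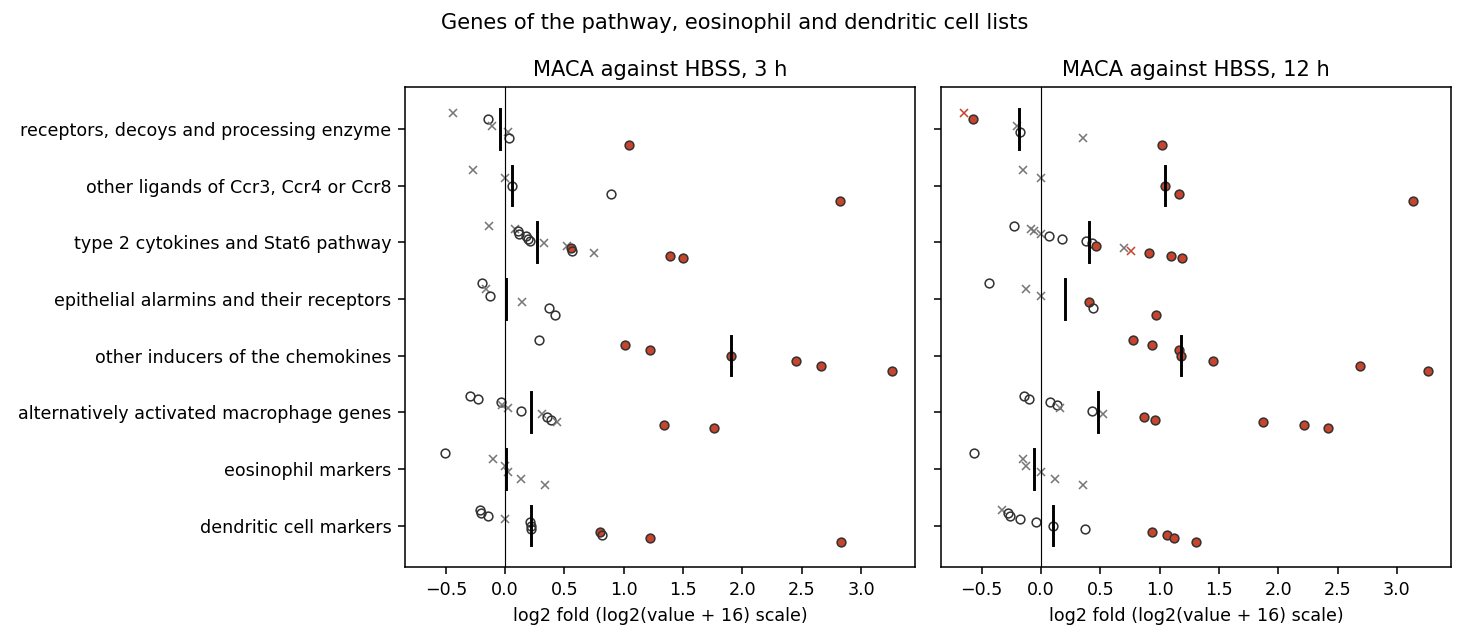
Log2 folds of MACA against HBSS at 3 h and 12 h for each measured gene of the pathway lists and of the eosinophil and dendritic cell markers. Filled red circles were called, open circles were not, crosses are genes with both groups under the noise level (red where the test was passed), and black bars are list medians. The list of other inducers lies farthest to the right at 3 h, with a median of 1.91.

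Markers of cells that make these chemokines or answer to them moved in some lists and not in others, and their part in the members' results was not tested. Of 6 eosinophil markers measured, 5 were under the noise level on every array of each group. Siglecf, shared with alveolar macrophages and named after its values were seen, differed by -0.51 and -0.56 on the log2 scale at 3 h and 12 h without a call. By limma 0 of the 6 were called at either time, and 0 had an unadjusted p under 0.05. Their summed intensity ranged from 119 to 174 after HBSS and from 80.9 to 133 after MACA at 3 h, and from 97.5 to 188 and from 75.6 to 148 at 12 h. The T cell and Th2 list had 0 of 13 called at 3 h (1 at an unadjusted p under 0.05) and 1 higher (Lat) and 1 lower (Ccr4, under noise) at 12 h, with 6 of 13 under noise in every group. Against BSA 0 of the 13 were called by limma at 12 h, with 0 at an unadjusted p under 0.05. The mean log2 level of Lat at 12 h was 7.32 after MACA, 7.44 after BSA and 6.67 after HBSS.

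Of the dendritic cell list 3 of 11 genes were called higher at 3 h and 4 of 11 at 12 h. Irf4, a transcription factor called at both times, also stands in the list of inducers. Cd83, a marker of mature dendritic cells also made by other activated cells, rose by 2.83 ± 0.22 (SE) at 3 h and 1.12 ± 0.22 at 12 h (limma, adjusted p = 3.76e-06 and 0.00249), and Fscn1 by 1.31 ± 0.36 and Itgax by 1.07 ± 0.15 at 12 h (0.0166 and 0.000228). The list median was 0.22 at 3 h and 0.10 at 12 h, and markers of dendritic cell lineages named after their values were seen were not called at 12 h, Flt3 at -0.26, Zbtb46 at -0.18 and Cd209a at -0.045. The summed intensity of the list ranged from 1617 to 2309 after HBSS and from 3328 to 4656 after MACA at 3 h, and from 1935 to 2149 and from 3122 to 3459 at 12 h. At 3 h most of that gap was Cd83, with a mean intensity of 273 after HBSS and 1960 after MACA.

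Macrophage and monocyte markers were higher for 2 and lower for 1 of 12 at 3 h, with a median log2 fold of -0.016. They were higher for 5 and lower for 0 at 12 h, with a median of 0.62. Marco, a scavenger receptor, was at least 2.33-fold higher (limma, adjusted p = 0.000332) and Cd68 rose by 1.16 ± 0.27 (SE) on the log2 scale (0.0075). Siglecf, also in this list, was not called at either time. The summed intensity of the list ranged from 15587 to 16556 after HBSS and from 17490 to 18725 after MACA at 12 h. At 3 h the ranges were 14472 to 17106 and 18881 to 21138. Neutrophil markers were higher for 5 of 11 at 3 h and 4 of 11 at 12 h, with summed intensities of 1123 to 3529 after HBSS and 7690 to 11815 after MACA at 3 h, and of 1855 to 3126 and 4412 to 7886 at 12 h. Against BSA 5 of 11 were called higher at 3 h and 1 of 11 at 12 h. The BSA sums at 12 h, 3087 to 6999, overlapped those after MACA.

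Fibroblast and smooth muscle markers, which belong to a known source of Ccl11, were called lower for 4 of 12 and higher for 0 at 12 h, when Ccl11 was called higher and 10.1% of all genes were called lower. Dcn fell by 1.07 ± 0.19 (SE) and Lum by 1.15 ± 0.22 on the log2 scale (limma, adjusted p = 0.00124 and 0.00176). Their summed intensity ranged from 31227 to 37558 after HBSS and from 28376 to 30931 after MACA. At 3 h 0 of 12 were called, with 1 at an unadjusted p under 0.05. Of 9 basophil and mast cell markers 1 was called higher (Cpa3, under noise) and 1 lower (Kit, which fell by 0.27 ± 0.09 on the log2 scale, 0.04) at 12 h, and 0 at 3 h (2 at an unadjusted p under 0.05). Against BSA 0 of the 9 were called by limma at 12 h, with 2 at an unadjusted p under 0.05. The mean log2 level of Kit at 12 h was 10.51 after MACA, 10.51 after BSA and 10.78 after HBSS.

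Lymphoid tissue in a sample could carry Ccl17 and Ccl22 as well. Of 6 thymus and lymph node markers measured 0 were called by limma at either time, with 1 at 3 h and 0 at 12 h at an unadjusted p under 0.05. Their summed intensity ranged from 164 to 245 after HBSS and from 279 to 1149 after MACA at 3 h, and from 225 to 293 and from 276 to 520 at 12 h. Airway epithelial and endothelial lists had 0 genes called at both times, with 0 and 2 at an unadjusted p under 0.05 at 3 h and 1 and 2 at 12 h. Of the 8 lung identity markers 0 were called at 3 h (1 at an unadjusted p under 0.05) and 3 were called higher at 12 h, Aqp5 by 0.60, Sftpd by 0.41 and Sftpc by 0.19 on the log2 scale.

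**Figure D4:**
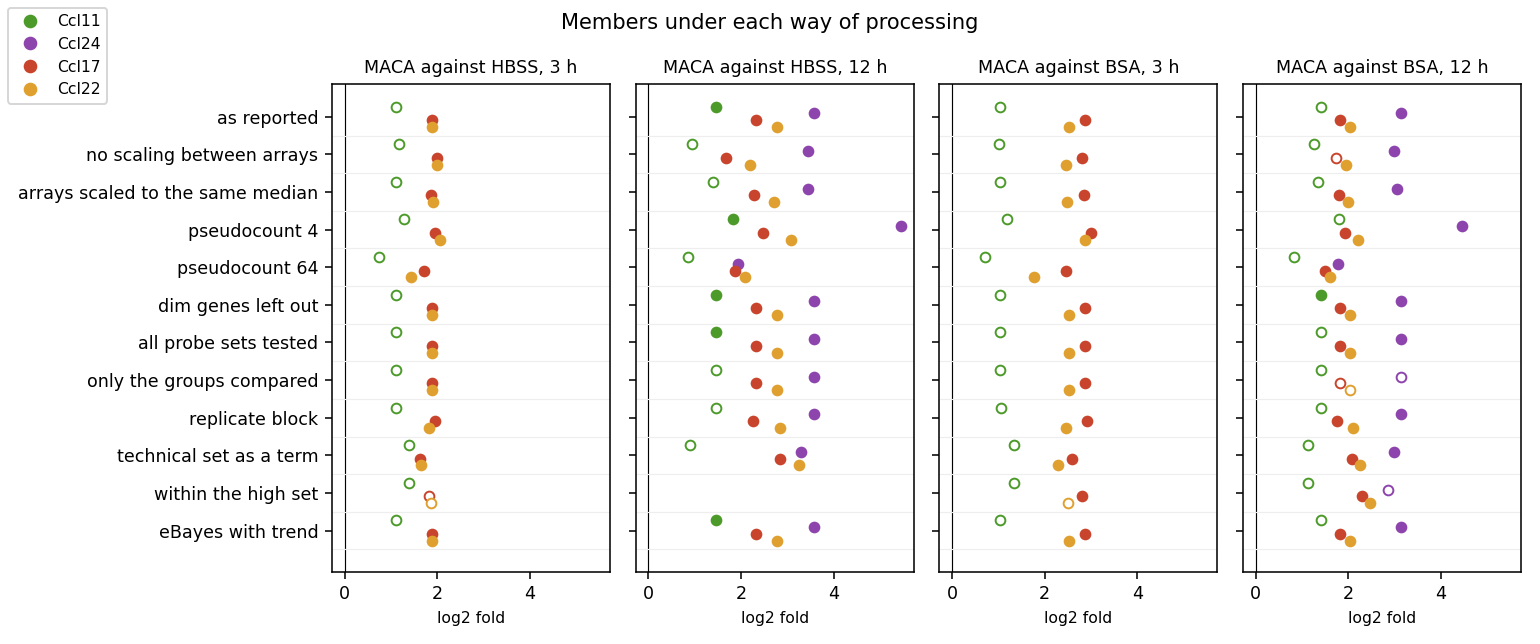
Log2 folds of the 4 chemokines in the MACA comparisons under the reported processing and each alternative. Filled points have an adjusted p under 0.05 and open points do not. Ccl24 at 3 h is left out, as both groups were under the noise level. The values drawn lie to the right of 0, and the Ccl24 fold against HBSS at 12 h runs from 1.92 with a pseudocount of 64 to 5.45 with a pseudocount of 4.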

How the data were processed

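Biotin-labelled cRNA from snap-frozen whole left lung was hybridised, per the labels' protocols. The deposited intensities are linear, 9.37% to 11.1% of an array's values are below 0, and the arrays were unscaled, with medians up to 3.08 times apart. Neither scanner software nor summary method is given in the sources used here. The 64 control probe sets were left out of 22690. Intensities were quantile normalized, values below 0 set to 0, and log2(intensity + 16) taken, so dim genes' folds are understated. Of 22626 probe sets 20380 had 1 gene symbol, 691 several and 1555 none, and 20351 matched the GRCm38.p6 gene table. The brightest probe set stood for each of 12393 genes, and 4956 genes had more than 1.

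limma 3.58.1 (R 4.3.3) fitted 6 group means (15 residual degrees of freedom). The fit was tested on simulated data. As the noise level (log2 5.83) served the 95th percentile of the size of values below 0. A gene under it on every array of 1 group is given as at least N-fold. The control sets are split at a ratio of 1.4 between 2 probe sets of a spiked control (0.939 to 1.22 and 1.62 to 1.91). Replicate numbers are shared between groups. Same-numbered arrays correlated above 0.1 in their deviations for every pair only for BSA against HBSS at 12 h (0.136 to 0.339), where no member's call changed with the replicate block. No arrays were identical (0 pairs). Figures used python 3.11.15 and matplotlib 3.10.9.

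Named genes were the members, the 4 genes most like each, up to 4 called list genes with the largest folds against HBSS at 12 h and 2 at 3 h, Ccr3, Ccr4, Il4, Il13 and Stat6, and 2 neighbours on each side. Members and lists were chosen with earlier results of these data known. Promoter windows come from RefSeq (GRCm38.p6), which matched 2 of 4 members. Ccl26, Il2rg, Il1rl1, Nfkb1, Ear1, Ear2, Ear6, Cebpe, Prss34, Clec9a, Ly6c1, Ly6g, Retnlg, Ccl19 and Ccl21a were not among the genes tested.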

Additional observations from a re-analysis of the deposited data

Results flagged for a closer look

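Ccl17 on MACA 3 h replicate 1 had a log2 level of 9.66, set apart below the other 3 arrays of its group, and it was still above every BSA and HBSS array. Ccl22 on BSA 12 h replicate 2 had a log2 level of 5.37, set apart below the other 3, and without it the 12 h to 3 h difference after BSA was 1.55 (limma, adjusted p = 0.0157) in place of 1.09 (0.147). Both passed Dixon's criterion, which chance passes in about 1 in 20 groups. The MACA to HBSS difference of Ccl24 changed between 3 h and 12 h by 3.80 on the log2 scale, and its MACA to BSA difference by 3.09.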

How the results depend on the processing

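Over 44 results on the members and 431 values under other settings, 390 kept their direction and side of the threshold, 23 lost a call, 4 gained one and 14 turned sign, and of 406 values that left out 1 array the counts were 371, 20, 4 and 11. The cause of these changes was not tested. Log2 values follow, with adjusted p from limma where a call changed. For MACA against HBSS at 12 h, Ccl11 lost its call with no scaling (0.94, 0.146), median scaling (1.39, 0.0504), a pseudocount of 64 (0.86, 0.0574), only the groups compared (1.46, 0.0646), the replicate block (1.45, 0.0684) and the control set as a term (0.89, 0.386). For MACA against BSA at 12 h, Ccl17 lost it with no scaling (1.72, 0.0915), and with only the groups compared Ccl17 (1.81, 0.106), Ccl22 (2.02, 0.114) and Ccl24 (3.13, 0.0693) did. Within the high set calls were lost for MACA against HBSS at 3 h by Ccl17 (1.82, 0.0587) and Ccl22 (1.86, 0.0754), for MACA against BSA by Ccl22 at 3 h (2.49, 0.0554) and Ccl24 at 12 h (2.85, 0.0701), and by Ccl24 for 12 h against 3 h after MACA (2.76, 0.0548). The time change of the Ccl24 MACA to BSA difference lost its call with all probe sets tested (3.09, 0.058), no scaling (3.01, 0.369), only the groups compared (3.09, 0.167), a pseudocount of 4 (4.34, 0.105), the replicate block (3.10, 0.103), the set as a term (2.82, 0.309) and within the high set (2.82, 0.404), and that of the MACA to HBSS difference with the set as a term (3.39, 0.0752). With dim genes left out Ccl11 gained a call for MACA against BSA at 12 h (1.42, 0.0437) and Ccl17 for 12 h against 3 h after HBSS (-1.30, 0.0453). With only the groups compared Ccl17 gained one for 12 h against 3 h after MACA (-0.87, 0.0143), and with a pseudocount of 64 the Ccl11 to Ccl17 response difference passed (-0.98, exact adjusted p = 0.0171).

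Signs turned in values that were not called: BSA against HBSS at 12 h for Ccl11 (-0.32 with no scaling, -0.24 with the set as a term, -0.24 within the low set) and Ccl17 (-0.043, no scaling), Ccl22 for 12 h against 3 h after HBSS (0.41, no scaling), Ccl17 for 12 h against 3 h after BSA (-0.094 with the set as a term, -0.30 within the high set), the time change of the MACA to HBSS difference for Ccl11 (-0.24 with no scaling, -0.50 with the set as a term) and Ccl17 (-0.31, no scaling), that of the MACA to BSA difference for Ccl11 (-0.20 with the set as a term and within the high set), and the response differences Ccl24 to Ccl17 (0.20, pseudocount 4) and Ccl17 to Ccl22 (0.031, pseudocount 64). With no scaling the median of all genes was -0.57 for MACA against HBSS at 12 h.

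Leaving out 1 array in turn, values for MACA against HBSS ran from 1.72 to 2.16 for Ccl17 and 1.75 to 2.04 for Ccl22 at 3 h and from 1.05 to 1.85 for Ccl11 at 12 h, and for MACA against BSA at 12 h from 1.01 to 1.81 for Ccl11 and 1.42 to 2.04 for Ccl17. BSA against HBSS ran from -0.15 to 0.20 at 3 h and -0.35 to 0.26 at 12 h for Ccl11. For 12 h against 3 h the ranges were -0.69 to 0.12 (Ccl11, MACA), -0.17 to 0.56 (Ccl17, BSA), 0.88 to 1.55 (Ccl22, BSA) and -1.66 to -1.02 (Ccl17, HBSS). The time change ran from -0.059 to 0.75 (Ccl11, HBSS), -0.038 to 0.77 (Ccl11, BSA) and 2.57 to 3.61 (Ccl24, BSA), and the response difference from -0.84 to 0.020 (Ccl11 to Ccl24) and -1.01 to -0.62 (Ccl11 to Ccl17).

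Counts of genes called moved by over 1.5 times. With no scaling they were 140 (1006 as reported) and 5574 (2509) for MACA against HBSS at 3 h and 12 h, 44 (738) and 96 (1196) for MACA against BSA, 0 (22; 409 at an unadjusted p under 0.05, limma) and 2059 (167) for BSA against HBSS, 93 (1331), 23 (657) and 7672 (977) for 12 h against 3 h after MACA, BSA and HBSS, and 2467 (484) and 0 (89; 600 unadjusted) for the time changes against HBSS and BSA. The 5574 were 162 higher and 5412 lower, against 1258 and 1251 as reported, and other splits moved to 128 and 12 (600 and 406 as reported) for MACA against HBSS and 41 and 3 (434 and 304) for MACA against BSA at 3 h, 6 and 2053 (69 and 98) for BSA against HBSS at 12 h, 7627 and 45 (504 and 473) for 12 h against 3 h after HBSS, and 22 and 2445 (256 and 228) for the time change against HBSS. Median scaling gave 384 and 432 for MACA against BSA at 3 h, 310 and 278 (418 and 239) for 12 h against 3 h after BSA, 337 and 536 after HBSS, and 287 and 162 for the time change against HBSS. With only the groups compared they were 532, 132 and 0 for MACA against HBSS at 3 h and against BSA at 3 h and 12 h, 78 and 3 for BSA against HBSS, 698 and 25 for 12 h against 3 h after MACA and BSA, and 2 for the time change against BSA. Within the high set they were 552, 152, 429 and 189 for MACA against HBSS at 3 h, MACA against BSA at 3 h and 12 h and BSA against HBSS at 3 h, 849 and 180 for 12 h against 3 h after MACA and BSA, and 13 for the time change against BSA, and within the low set 283 for BSA against HBSS at 12 h. With the set as a term they were 760 for MACA against BSA at 12 h, 54 and 1493 for BSA against HBSS, 313 for 12 h against 3 h after BSA, and 236 and 2 for the time changes, and with the replicate block 305 and 13 for the time changes. All probe sets gave 3857 (MACA against HBSS, 12 h), 34 and 267 (BSA against HBSS), 2063 (12 h against 3 h, MACA) and 1569 (HBSS), dim genes left out gave 35 (BSA against HBSS, 3 h) and 136 (time change against BSA), and median scaling 63 (BSA against HBSS, 12 h). Leaving out 1 array, the counts ran from 481 to 1180 and 1366 to 2223 for MACA against HBSS at 3 h and 12 h, 218 to 922 and 398 to 1670 for MACA against BSA, 7 to 26 and 4 to 338 for BSA against HBSS, 666 to 1288, 156 to 1008 and 327 to 765 for 12 h against 3 h after MACA, BSA and HBSS, and 161 to 524 and 6 to 220 for the time changes. The replicate block changed no other call of a member. Signal near the background limits Ccl24 and Ccl11.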
